A study of Mus musculus with 6 samples.

Results

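Genes of exosome formation and release were examined in bone marrow mesenchymal stem cells (BMMSCs), the adherent cells grown out of mouse bone marrow, after knockdown of Tet1 and Tet2. The set holds 10 genes, chosen by their known roles, though with earlier results of these data known. They include the neutral sphingomyelinase genes Smpd3 and Smpd2 and the ESCRT-linked genes Tsg101, Pdcd6ip and Sdcbp. The others are the Rab27 genes Rab27a and Rab27b, and the tetraspanin genes Cd9, Cd63 and Cd81. All 10 were found by symbol among the 36870 distinct symbols of the deposited table, each in 1 row. The control group is 3 RNA-seq libraries of C57BL/6 BMMSCs given non-targeting control siRNAs, and the siTet1/Tet2 group is 3 libraries of the same cells given siRNAs against both Tet1 and Tet2. The labels give all cells as passage p2, whereas the methods give passage 1. The methods name non-targeting siRNAs as the negative control, as the labels do, though their RNA-seq section writes vehicle. The age of the mice for these cultures and whether replicates came from separate cultures are not stated. The p-values therefore measure the spread between these libraries, which may be technical. Transfection acted on whole cultures of mixed adherent cells, and no exosomes were measured in these libraries.

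Exosomes are small vesicles that form when the membrane of a late endosome buds inward, and they leave the cell when that endosome fuses with the plasma membrane. Budding can be driven by the ESCRT complexes, by syntenin and ALIX bound to syndecans, or by ceramide that neutral sphingomyelinase releases from sphingomyelin. Rab27 proteins dock the loaded endosomes at the plasma membrane, and the tetraspanins CD9, CD63 and CD81 are built into the vesicle membrane and serve as its usual markers. The study was concerned with Tet1, Tet2 and the ATP-gated channel P2rx7 in exosome release, and the comparison asks whether transcripts of the release machinery itself differed after the knockdown.

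The values are RPKM, reads scaled to the length of the gene and to the mapped reads of the library, so that levels of different genes can be set side by side. The table gives no read totals. By the spacing of low values the libraries held about 32400000 to 38500000 reads, a rough estimate, as 53.3% to 58.9% of these values came to within 0.1 of a whole number of reads. Tet2 was at 2.57, 4.08 and 3.71 RPKM in controls and at 0.358, 0.238 and 0.202 RPKM after the knockdown, and Tet1 was at no more than 0.098 RPKM in any library. Tet3, which was not targeted, averaged 7.03 and 7.66 RPKM (adjusted p = 0.508 from limma). P2rx7 was at 31.6 ± 1.64 RPKM in controls and 7.18 ± 1.15 RPKM after the knockdown (SD, n = 3 each). The cultures carried macrophage transcripts at high levels. All 16 macrophage markers examined were expressed, with 8 higher and 4 lower at an adjusted p under 0.05 from limma. Over all genes tested, 14.7% were higher and 29.8% lower. The summed RPKM of the 16 markers lay between 7978 and 10200 in the control libraries and between 15927 and 19162 in the siRNA libraries. Most of that rise was Lyz2, from 4439 to 11321 RPKM on average, and the median ratio of the siRNA mean to the control mean over the 16 markers was 1.16, from 0.255 (Fcgr1) to 2.55 (Lyz2). Of 16 marrow stromal markers, 13 were expressed highly enough to be tested. Of these, 9 were lower and 1, Vcam1, was higher, beside 29.8% lower and 14.7% higher over all genes tested. The summed RPKM of the 16 markers lay between 1012 and 1552 in the control libraries and between 192 and 327 in the siRNA libraries. Most of this sum was Col1a1, at 488 and 72.1 RPKM on average in the 2 groups, and Col1a2, at 437 and 76.4 RPKM. The stromal markers Thy1, Lepr and Lum, which were not among those tested, stayed at or under 0.146 RPKM in every library.

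Smpd3 showed the largest change of the 10 genes in the siRNA libraries, Smpd2, Cd9 and Cd63 rose by smaller amounts, Cd81 was slightly lower, and the genes of syntenin, ALIX and TSG101 did not pass the test. Log2(RPKM + 1) was compared with limma among the 13266 genes whose mean reached 0.1 RPKM, with Benjamini-Hochberg adjustment over all of them. For genes of low RPKM the pseudocount makes these fold changes smaller than the ratio of means. Of the 10 genes, 9 passed the expression minimum, and 5 of these had an adjusted p under 0.05, 2 lower and 3 higher. In the background of all genes tested, 44.5% had such a p, 29.8% lower and 14.7% higher. That split of 3952 lower and 1953 higher genes became 3054 and 2737 with median ratio scaling and 2627 and 3607 after quantile normalization. By the thresholds of the study (p under 0.05 without adjustment, and more than a 2-fold difference), here with the fold taken on RPKM + 1, Smpd3 was the altered gene among the 9 tested, and Rab27b was not tested. The background was 6.58% of all genes tested, 5.63% lower and 0.95% higher. That background depends on the pseudocount, as 873 genes were altered with 1 RPKM added, 1728 with 0.1 RPKM and 1958 with 0.01 RPKM. The median log2 fold change of the 9 genes was 0.0026, beside -0.09 for all genes tested. The groups did not overlap in 8 of the 10 genes, 4 lower and 4 higher, with the untested Rab27b among the lower. Among the 9 genes tested they did not overlap in 7, against 55.7% of all genes tested, 35.9% lower and 19.8% higher.

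**Figure D1:**
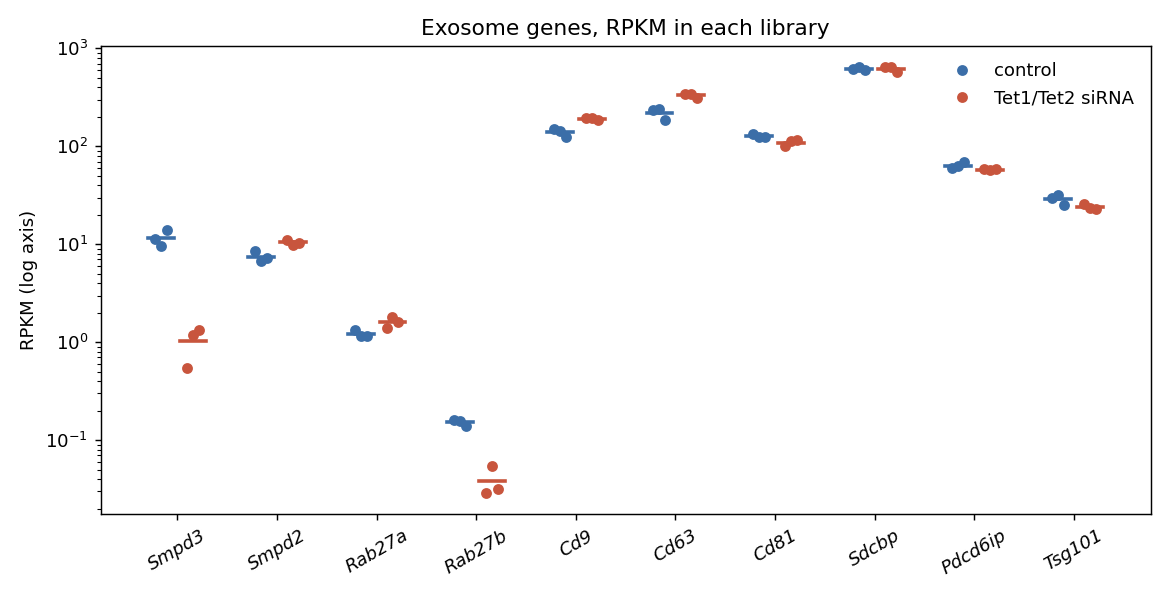
RPKM on a log axis of the 10 exosome genes in each of the 6 libraries, with control libraries in blue and Tet1/Tet2 siRNA libraries in red and a line at each group mean (n = 3). Smpd3 falls from 11.6 to 1.03 RPKM on average and Rab27b from 0.152 to 0.0387 RPKM, whereas Sdcbp stays at 619.7 and 621 RPKM.

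The genes spanned a wide range of levels. Sdcbp was the most abundant in controls, at 619.7 ± 22.02 RPKM (SD, n = 3), above 99.6% of the genes tested. Cd63, Cd9 and Cd81 followed at 219, 139 and 127 RPKM on average. Cd9, between 124 and 152 RPKM, overlapped Cd81, between 124 and 133 RPKM, so these neighbours in the order were not separated in the control libraries. Pdcd6ip and Tsg101 came next, followed by Smpd3, Smpd2, Rab27a and Rab27b. In the siRNA libraries the order changed at Smpd3, which went from the seventh to the ninth place, below Smpd2 and Rab27a, and its highest siRNA library (1.33 RPKM) was below the lowest of Rab27a (1.41 RPKM).

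Neutral sphingomyelinases were examined first. Smpd3 encodes nSMase2, the enzyme most often linked with ceramide-dependent exosome budding and also known for its part in bone and cartilage mineralization. It lies on chromosome 8 of GRCm38 (chr8:106252548-106337988, minus strand). Smpd3 was at 11.3, 9.68 and 13.9 RPKM in controls and at 0.549, 1.195 and 1.33 RPKM after the knockdown. Every siRNA library was far below every control library, and siRNA replicate 1 was the lowest. On average it was 11.3-fold lower, and its log2 fold change of RPKM + 1 was -2.65 (standard error 0.18, adjusted p = 1.835e-05 from limma). In estimated reads on the longest annotated transcript, this was a drop from between 1639 and 2316 to between 108 and 243 per library. Smpd3 kept an adjusted p under 0.05 in all 16 alternative fits, with log2 fold changes from -3.57 to -2.46.

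The summed stromal markers, mostly Col1a1 and Col1a2, moved in the same libraries. As a percent of the control mean, Smpd3 was at 4.73%, 10.3% and 11.5% in siRNA replicates 1, 2 and 3, and the summed stromal markers were at 15.8%, 19.5% and 26.8%. Among the 11 stromal markers with a mean of at least 1 RPKM, the median ratio of the siRNA mean to the control mean was 0.172. The ratios went from 0.0952 (Pdgfra) to 3.30 (Vcam1), and Smpd3, at 0.0883, was just below the lowest. On log2(RPKM + 1), Smpd3 at -2.65 lay within the range of the 13 stromal markers tested, -3.10 to 1.67, with a median of -2.32. Fewer cells of a type and less RNA per cell cannot be told apart in bulk libraries, and the part of the stromal cells in the change of Smpd3 was not tested.

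**Figure D2:**
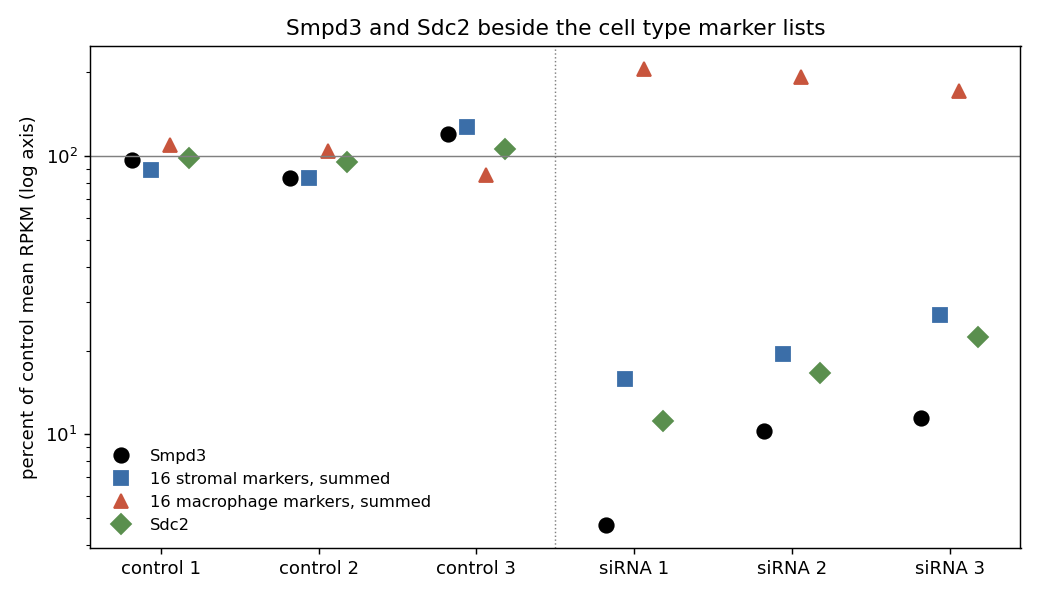
Level in each library as a percent of the control mean RPKM (log axis) for Smpd3 (circles), Sdc2 (diamonds), and the summed RPKM of 16 stromal markers (squares) and 16 macrophage markers (triangles). In the 3 siRNA libraries Smpd3 sits at 4.73% to 11.5%, below Sdc2 at 11.1% to 22.4% and the stromal sum at 15.8% to 26.8%. The stromal sum is mostly Col1a1 and Col1a2, and the macrophage sum, whose rise is mostly Lyz2, lies at 171% to 206%.

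Smpd2 encodes nSMase1, a neutral sphingomyelinase found mainly in the endoplasmic reticulum. The gene lies on chromosome 10 (chr10:41485642-41490369, minus strand). It was at 8.525, 6.75 and 7.22 RPKM in controls and at 11.2, 9.95 and 10.3 RPKM after the knockdown. The groups did not overlap, and Smpd2 rose 1.39-fold (log2 fold change 0.44, standard error 0.10, adjusted p = 0.00748 from limma). In 20.3% of its exon bases Smpd2 overlaps Mical1 on the other strand. Since the use of strand in the counting is not stated, reads from these bases cannot be assigned to either gene. The ratio of Smpd3 to Smpd2 within a library, which does not depend on the scaling between libraries, was 1.32, 1.43 and 1.92 in the control libraries and 0.0492, 0.120 and 0.130 in the siRNA libraries. In the control libraries Smpd3 was thus the more abundant of the pair, and in each siRNA library Smpd2 was.

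Next, the tetraspanin markers were compared. CD9 and CD81 are the proteins that the study used to mark exosomes, and CD63 is the tetraspanin most enriched in late endosomes and lysosomes. Cd9, on chromosome 6 (chr6:125460266-125494791, minus strand), was at 152, 142 and 124 RPKM in controls and at 194, 195 and 186 RPKM after the knockdown. Its lowest siRNA library was above its highest control library, and its mean rose 1.38-fold (log2 fold change 0.46, standard error 0.08, adjusted p = 0.00231 from limma). Cd63, on chromosome 10 (chr10:128900989-128912822, plus strand), was at 235, 239 and 185 RPKM in controls and at 344, 344 and 312 RPKM after the knockdown. The groups were again apart, control replicate 3 was the lowest library for both genes, and Cd63 rose 1.52-fold (log2 fold change 0.61, standard error 0.11, adjusted p = 0.00219 from limma). In 10.7% of its exon bases Cd9 overlaps Gm26728 on the other strand. Cd9 and Cd63 had an adjusted p under 0.05 in each of the 16 alternative fits.

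Cd81 went the other way. The gene, on chromosome 7 (chr7:143052739-143067934, plus strand), was at 133, 124 and 124 RPKM in controls and at 101, 113 and 115 RPKM after the knockdown. The siRNA libraries were all lower, and the mean was 1.16-fold lower (log2 fold change -0.21, standard error 0.07, adjusted p = 0.0373 from limma). This call did not hold with median ratio scaling (-0.11, adjusted p = 0.234) or quantile normalization (-0.15, with 0.092). It was also lost without control replicate 1 (adjusted p = 0.096), control replicate 2 (0.0785), siRNA replicate 1 (0.143) or siRNA replicate 2 (0.0771), all from limma. Over all alternatives the adjusted p of Cd81 went from 0.0143 to 0.234.

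**Figure D3:**
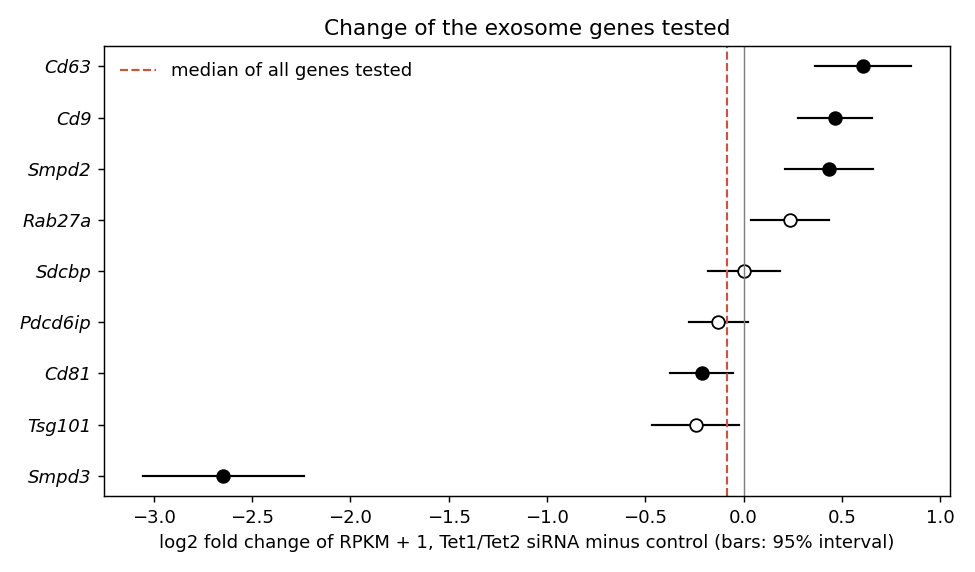
Log2 fold change of RPKM + 1 (Tet1/Tet2 siRNA minus control) with its 95% interval from limma for the 9 exosome genes that passed the expression minimum. Filled points had an adjusted p under 0.05, the dashed line marks the median of all genes tested (-0.09), and Smpd3 at -2.65 stands apart from the other points, which lie between -0.24 and 0.61.

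Within each library, Cd9 and Cd63 were set against Cd81. The ratio of Cd9 to Cd81 was 1.14, 1.15 and 0.994 in the control libraries and 1.92, 1.73 and 1.61 in the siRNA libraries, a 1.604-fold shift. The ratio of Cd63 to Cd81 was 1.77, 1.93 and 1.48 in the control libraries and 3.42, 3.05 and 2.71 in the siRNA libraries, a 1.77-fold shift. Neither ratio overlapped between the groups. The exact permutation p was 0.1 for each (two-sided, n = 3 per group), the smallest that 3 against 3 libraries allow, and 0.125 after adjustment over the 5 ratios computed. The macrophage sum, whose rise was mostly Lyz2, moved with Cd9 and Cd63 in these libraries. However, the median macrophage marker ratio was 1.16, and the part of the macrophages was not tested.

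Since Tet enzymes act mainly on cytosines of CG dinucleotides, the sequence before the start sites of the 3 tetraspanin genes is shown, 250 bases each, with CG in capitals. The sequences are from RefSeq on GRCm38.p6 and read 5′ to 3′ on the strand of the gene. The Cd9 window is chr6:125494761-125495010 (minus strand), the Cd63 window chr10:128909095-128909344 (plus strand) and the Cd81 window chr7:143052500-143052749 (plus strand).
Cd9: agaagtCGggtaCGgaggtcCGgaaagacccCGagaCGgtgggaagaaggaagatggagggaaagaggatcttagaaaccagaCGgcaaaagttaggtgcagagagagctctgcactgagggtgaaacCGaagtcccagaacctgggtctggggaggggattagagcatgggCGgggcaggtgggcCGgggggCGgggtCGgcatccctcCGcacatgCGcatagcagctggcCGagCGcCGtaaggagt
Cd63: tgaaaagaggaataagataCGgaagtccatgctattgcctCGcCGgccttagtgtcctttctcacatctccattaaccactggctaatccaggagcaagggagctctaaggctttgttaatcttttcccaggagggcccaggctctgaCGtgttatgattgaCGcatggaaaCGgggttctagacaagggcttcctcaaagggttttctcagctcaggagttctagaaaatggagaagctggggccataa
Cd81: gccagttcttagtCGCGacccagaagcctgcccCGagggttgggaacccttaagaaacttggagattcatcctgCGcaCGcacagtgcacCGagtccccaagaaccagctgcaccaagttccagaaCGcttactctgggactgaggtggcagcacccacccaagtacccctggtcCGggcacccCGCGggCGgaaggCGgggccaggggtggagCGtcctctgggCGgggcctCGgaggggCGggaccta
Cd9 and Cd81 each hold 16 CG in these 250 bases, whereas Cd63 holds 6. The Cd63 window lies before a start site inside the gene as annotated in GENCODE M21. DNA methylation was not measured in these libraries.

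RefSeq windows of 300 bases, from 250 before to 50 after a start, were found for 7 of the 10 genes, with no entry for Smpd3, Rab27b and Sdcbp. The median over all 32851 windows was 7 CG. Tsg101 held the most, 38 CG, more than 95.05% of all windows, followed by Pdcd6ip with 27, Smpd2 with 25, Cd81 with 23 and Cd9 with 18. Rab27a held 18 at its first start and 6 at its second, and Cd63 held 6. The E-box CACGTG, which reads the same on both strands, occurred in Smpd2, Pdcd6ip and the second window of Rab27a, and in 7.15% of all windows. The GC box GGGCGG, searched on both strands, occurred in Smpd2, Cd9, Cd81, Tsg101 and the first window of Rab27a, and in 35.7% of all windows.

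The genes of syntenin, ALIX and TSG101 were at high levels in all libraries. Syntenin, encoded by Sdcbp, is the adaptor that links syndecans to ALIX during budding. Sdcbp, on chromosome 4 (chr4:6365650-6408423, plus strand), was at 619, 642 and 598 RPKM in controls and at 643, 643 and 578 RPKM after the knockdown. The groups overlapped fully, and the log2 fold change was 0.0026 (95% interval -0.18 to 0.19, adjusted p = 0.982 from limma). The interval lies on both sides of no change.

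Pdcd6ip encodes ALIX, which recruits ESCRT-III to the bud. On chromosome 9 (chr9:113651744-113708259, minus strand), it was at 59.45, 62.9 and 68.5 RPKM in controls and at 58.2, 57.5 and 58.3 RPKM after the knockdown. The siRNA libraries lay just below the control libraries, and the log2 fold change of -0.13 did not pass (95% interval -0.28 to 0.02, adjusted p = 0.141 from limma). Tsg101, an ESCRT-I subunit on chromosome 7 (chr7:46888949-46919969, minus strand), was at 29.6, 31.9 and 25.004 RPKM in controls and at 26.0, 23.4 and 22.9 RPKM after the knockdown. The groups overlapped through control replicate 3, with a log2 fold change of -0.24 (95% interval -0.46 to -0.02, adjusted p = 0.0716 from limma). Tsg101 passed with the replicate number as a block (adjusted p = 0.0287), after rescaling the libraries to an equal sum (0.0158) and without control replicate 3 (0.00681), all from limma. The ratio of Tsg101 to Pdcd6ip overlapped between the groups, with means of 0.456 and 0.416 (two-sided exact permutation p = 0.5, n = 3 per group).

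Rab27 genes were the least abundant of the set. RAB27A and RAB27B are close paralogs that act at successive steps of the docking of loaded endosomes. Rab27a, on chromosome 9 (chr9:73044854-73097629, plus strand), was at 1.33, 1.17 and 1.15 RPKM in controls and at 1.41, 1.82 and 1.595 RPKM after the knockdown. All siRNA libraries were higher, but the log2 fold change of 0.24 missed the threshold (95% interval 0.04 to 0.44, adjusted p = 0.0571 from limma). It passed with median ratio scaling (adjusted p = 0.0236), after quantile normalization (0.00331) and in eBayes without trend (0.0453). Rab27b, on chromosome 18 (chr18:69979131-70141605, minus strand), was at 0.161, 0.157 and 0.139 RPKM in controls and at 0.029, 0.055 and 0.032 RPKM after the knockdown. On its longest annotated transcript this corresponds to about 31 to 41 reads per control library and 8 to 15 reads per siRNA library, so the values rest on few reads. Its mean over the 6 libraries was under the expression minimum, and it was not among the genes tested. The groups did not overlap and the siRNA mean was 3.94-fold lower (two-sided exact permutation p = 0.1, n = 3 per group, the smallest possible). Without the filter on low values, limma gave Rab27b a log2 fold change of -0.15 with an adjusted p of 0.00123.

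Within a library, Rab27a was 8.24, 7.44 and 8.24 times as abundant as Rab27b in the control libraries and 48.7, 33.2 and 49.8 times in the siRNA libraries. The shift was 5.42-fold (two-sided exact permutation p = 0.1, n = 3 per group, adjusted p = 0.125), or 2.44 as a difference of log2 ratios. With 0.1 RPKM added to both genes that difference was 1.24, so its size rests on the low values of Rab27b. Across the 5 ratios, Smpd3 to Smpd2 shifted most, 16.8-fold, and the groups overlapped for Tsg101 to Pdcd6ip alone.

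**Figure D4:**
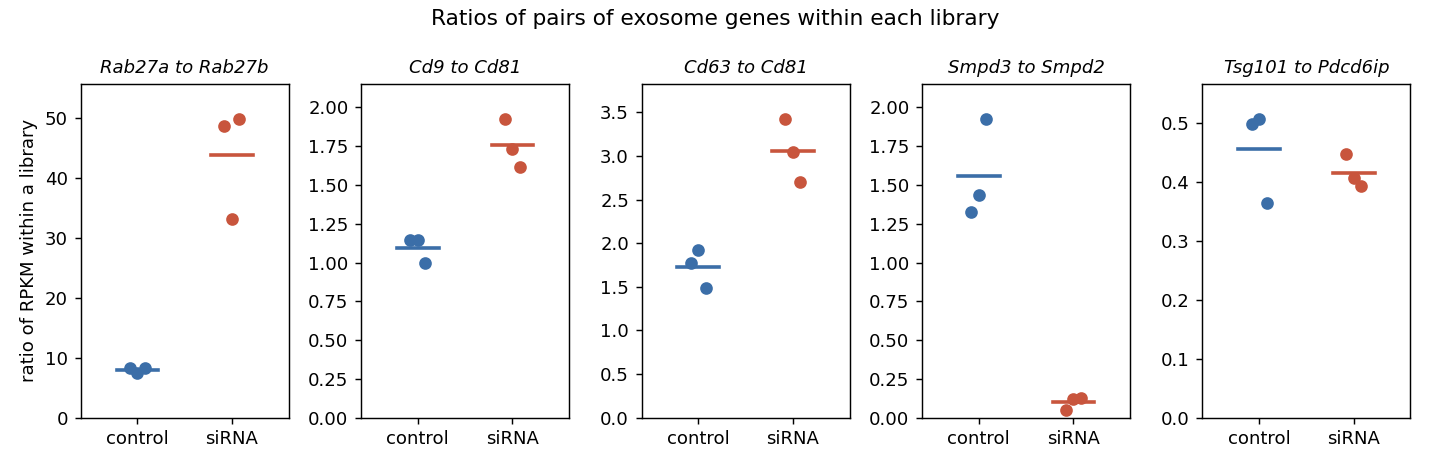
Ratio of the RPKM of 2 genes within each library (linear axes from 0) for 5 pairs, with control libraries in blue, Tet1/Tet2 siRNA libraries in red and a line at each group mean (n = 3). The groups are apart in 4 of the 5 pairs and overlap for Tsg101 to Pdcd6ip, at means of 0.456 and 0.416.

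The other genes of the pathway were described with 6 lists that hold 112 genes, of which 104 were expressed highly enough to be tested. Of these, 20 were higher and 30 lower at an adjusted p under 0.05 from limma, or 48.1%, beside 44.5% of all genes tested. By list the share was 66.7% for syndecans and the syntenin route, 32.1% for ESCRT and Vps4, and 33.3% for sphingomyelin and ceramide enzymes. It was 28.6% for Rab and Ral GTPases, Rab27 effectors and SNAREs, 80% for other tetraspanins and 64.3% for other vesicle markers. With median ratio scaling the split was 29 higher and 22 lower, and after quantile normalization 30 higher and 24 lower, so the balance of directions depends on the scaling.

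Of the 9 genes of syndecans and the syntenin route, 6 were lower and none (0) was higher, beside 29.8% lower and 14.7% higher over all genes tested. Syndecans are the heparan sulphate proteoglycans whose tails syntenin binds. All 4 syndecan genes fell, although Sdcbp itself did not pass the test. Sdc2 was at 37.1, 36.0 and 40.1 RPKM in controls and at 4.20, 6.25 and 8.46 RPKM after the knockdown, a 5.99-fold lower mean (log2 fold change -2.45, adjusted p = 3.42e-05 from limma). Sdc3, the most abundant, fell from 221 ± 8.55 to 122 ± 8.34 RPKM (SD, n = 3). Sdc1 fell from 44.7 to 20.6 RPKM and Sdc4 from 73.0 to 37.5 RPKM. Each of the 4 kept its adjusted p under 0.05 in all 16 alternative fits. The other lower genes, named after their values were seen, were Src, from 11.8 to 5.66 RPKM, and Ptpn11, from 38.5 to 28.1 RPKM. The summed stromal markers, mostly Col1a1 and Col1a2, fell to 15.8% to 26.8% of the control mean in the siRNA libraries. Sdc2 had a ratio of the siRNA mean to the control mean of 0.167. The ratios were 0.460 for Sdc1, 0.480 for Src, 0.513 for Sdc4, 0.549 for Sdc3 and 0.730 for Ptpn11. Among the 11 stromal markers with a mean of at least 1 RPKM, the median was 0.172, from 0.0952 (Pdgfra) to 3.30 (Vcam1). The part of the stromal cells was not tested.

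Of 28 genes of ESCRT subunits and Vps4, 3 were higher, 6 lower and 19 did not pass, with a median log2 fold change of RPKM + 1 of 0.0029. On that scale the log2 fold changes lay between -0.58 and 0.50. By the ratio of means, Vps37d, a gene of ESCRT-I named after its values were seen, was 4.21-fold lower, at 0.757 and 0.180 RPKM (adjusted p = 0.000207 from limma). Vta1, a cofactor of the VPS4 ATPase, fell from 43.8 ± 0.868 to 29.4 ± 0.696 RPKM (SD, n = 3, adjusted p = 0.00011 from limma), and Stam2 of ESCRT-0 fell from 25.6 to 18.3 RPKM. Mvb12b of ESCRT-I rose from 22.3 ± 0.394 to 32.0 ± 0.355 RPKM (SD, n = 3, adjusted p = 0.000194 from limma). Chmp4b, the main filament subunit of ESCRT-III and the most abundant of the list, fell from 197 to 163 RPKM, a call lost with median ratio scaling (adjusted p = 0.0792).

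Of 12 sphingomyelin and ceramide enzymes, 2 were higher and 2 lower. Asah1, the acid ceramidase of lysosomes, rose from 159 ± 7.17 to 223 ± 4.05 RPKM (SD, n = 3, adjusted p = 0.000376 from limma). Degs1, which makes the last step of de novo ceramide synthesis, rose from 118 to 148 RPKM, a call lost without siRNA replicate 2 (adjusted p = 0.0504). Asah2, the neutral ceramidase, had means of 4.85 and 3.84 RPKM (adjusted p = 0.0476 from limma), and this call was lost in 9 of 16 alternative fits, with adjusted p-values up to 0.339. Among them were the fits without control replicate 2 (0.136), control replicate 3 (0.111), siRNA replicate 1 (0.0929), siRNA replicate 2 (0.152) and siRNA replicate 3 (0.0708). No other enzyme of the list changed as Smpd3 did, as the log2 fold changes of this list lay between -0.27 and 0.49.

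Among other Rab and Ral GTPases, Rab27 effectors and SNAREs, 21 of 25 genes were tested, of which 2 were higher and 4 lower. Rab7, the most abundant, was at 185 ± 4.93 and 191 ± 14.1 RPKM (SD, n = 3, adjusted p = 0.681 from limma). Rab31 rose from 65.3 ± 5.00 to 108 ± 5.45 RPKM (SD, n = 3, adjusted p = 0.000134 from limma), and Mlph, the gene of the Rab27 effector melanophilin, rose from 0.503 to 1.09 RPKM. The 4 lower genes were Sytl2, Sytl4, Sytl5 and Ralb, all but the first named after their values were seen. The Sytl genes encode synaptotagmin-like proteins that bind Rab27 on the vesicle. Sytl2 was at 1.45, 1.63 and 1.76 RPKM in controls and at 0.373, 0.372 and 0.562 RPKM after the knockdown, a 3.70-fold lower mean (log2 fold change -0.87, adjusted p = 0.000112 from limma). Sytl4, an effector known from exosome docking, fell from 0.914 to 0.246 RPKM and Sytl5 from 0.977 to 0.174 RPKM. Both stayed at or under 1.159 RPKM in every library, so their ratios rest on low values. Ralb was at 48.8 and 41.8 RPKM (adjusted p = 0.0169 from limma), and this call was lost with median ratio scaling (0.186), quantile normalization (0.123) and without control replicate 2 (0.0543), siRNA replicate 1 (0.0608) or siRNA replicate 3 (0.0617). Unc13d, another Rab27 effector, stayed near 10.7 RPKM in both groups. The ratios of the siRNA mean to the control mean were 0.270 for Sytl2, 0.270 for Sytl4 and 0.178 for Sytl5. The median ratio of the 11 stromal markers with a mean of at least 1 RPKM was 0.172, and the part of the stromal cells was not tested.

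Of 24 other tetraspanins, 20 were tested, and 9 were higher and 7 lower, or 80% in all, beside 44.5% of all genes tested. Tspan6 was at 7.52, 8.21 and 7.68 RPKM in controls and at 1.82, 1.84 and 1.77 RPKM after the knockdown, a 4.30-fold lower mean (log2 fold change -1.64, adjusted p = 4.45e-06 from limma). Tspan9 fell from 3.87 to 1.43 RPKM, whereas Tspan13 rose from 11.4 to 22.2 RPKM. The stromal markers moved with Tspan6 and Tspan9, whose ratios of means were 0.232 and 0.369 beside a median of 0.172 for those markers, and their part was not tested. Cd53, a leukocyte tetraspanin and the most abundant of the list, was at 204 ± 15.6 and 174 ± 14.5 RPKM (SD, n = 3, adjusted p = 0.0616 from limma). Cd53 passed with the replicate number as a block (adjusted p = 0.00958), after quantile normalization (0.0378), after rescaling the libraries to an equal sum (0.00586) and without control replicate 3 (0.0128).

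Other proteins used as markers of extracellular vesicles were divided as well, with 4 of 14 genes higher and 5 lower. The lower genes, named after their values were seen, included Anxa2, from 632 to 464 RPKM, and Hsp90ab1, from 587 to 445 RPKM. The others were Itgb1, from 383 to 273 RPKM, Hspa8, from 334 to 256 RPKM, and Anxa6, from 123 to 108 RPKM. Mfge8, the gene of the vesicle coat protein lactadherin, was at 85.2, 82.9 and 78.3 RPKM in controls and at 237, 211 and 200.2 RPKM after the knockdown, a 2.63-fold rise (log2 fold change 1.38, adjusted p = 7.14e-06 from limma). Lamp1, a membrane protein of lysosomes and the most abundant of the list, rose from 719 ± 53.9 to 1154 ± 53.9 RPKM (SD, n = 3, adjusted p = 0.000556 from limma). Ptgfrn, which encodes a partner of CD9 and CD81 in the membrane, rose from 11.4 to 18.4 RPKM. The macrophage sum, at 171% to 206% of the control mean in the siRNA libraries, moved with the rises of Mfge8, Lamp1 and Ptgfrn. Most of the rise of that sum was Lyz2. The median ratio over the 16 macrophage markers was 1.16 with 4 of them lower, and their part was not tested.

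**Figure D5:**
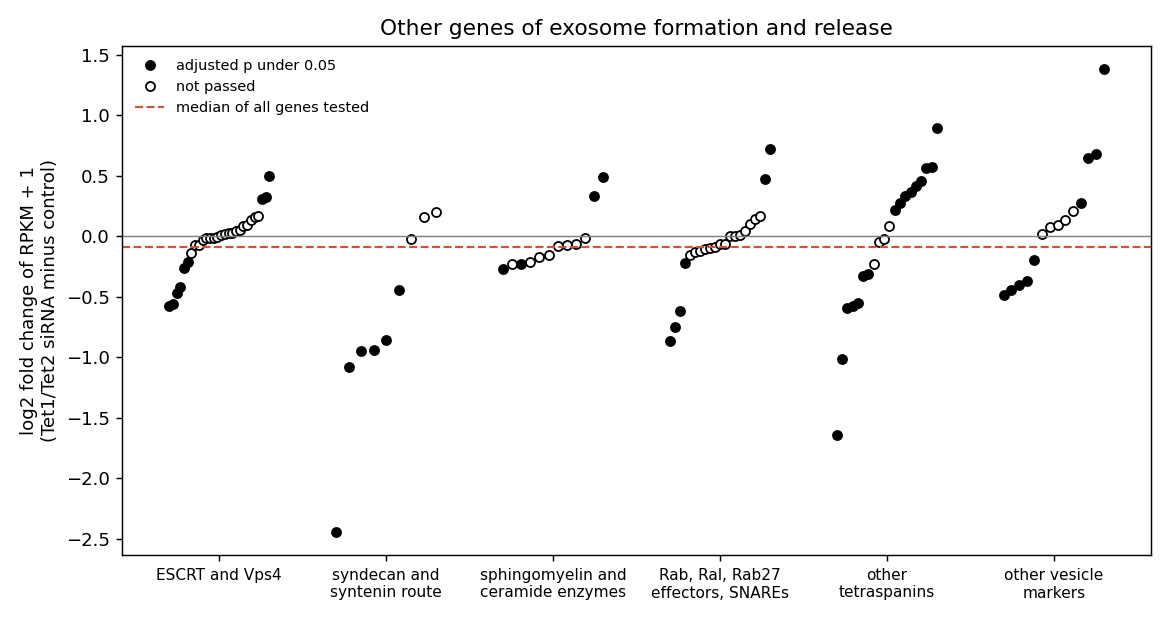
Log2 fold change of RPKM + 1 (Tet1/Tet2 siRNA minus control) of the 104 tested genes in 6 lists of exosome formation and release, ordered within each list, with filled points for an adjusted p under 0.05 from limma. The syndecan and syntenin list reaches down to -2.45 (Sdc2), most ESCRT genes lie near 0, and the vesicle markers reach up to 1.38 (Mfge8).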

How the data were processed

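RNA-seq values of 6 libraries, 3 control and 3 siTet1/Tet2, were used. The authors mapped adaptor-trimmed reads to GRCm38 with DNASTAR Lasergene, and the deposited values are linear RPKM per gene and library, a unit the methods call FPKM. Annotation, strand and multi-mapped reads are not given in the sources used here. A column of the authors' p-values was not used. Where a symbol had several rows (37 symbols), the most abundant row stood for it. Genes averaging 0.1 RPKM or more were tested on log2(RPKM + 1) with limma 3.58.1 in R 4.3.3 (eBayes with trend, two-sided, Benjamini-Hochberg adjustment, 2-fold threshold taken on RPKM + 1). The procedure was also run on simulated data in which few genes, none of low RPKM, had large shifts. That run does not cover small changes, low values or changes in many genes. Ratios were compared with exact permutation tests, which cannot go below 0.1 with 3 against 3. Adgre1 was found under the older symbol Emr1, and Vamp7 was not matched.

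The 10 genes and the lists were chosen with earlier results of these data known. Named from each list were the most abundant gene and the 3 genes with the largest change among those with an adjusted p under 0.05, no overlap and a mean of at least 1 RPKM in a group. Deviations from the group means correlated across genes by 0.149, 0.117 and 0.462 for replicates 1, 2 and 3, all over 0.1, so a replicate block was an alternative, although control replicate 1 with siRNA replicate 2 reached 0.332 and the labels do not say what a number stands for. Other alternatives were pseudocounts of 0.1 and 0.01, no filter, an expression minimum of 1 RPKM, 3 other scalings, eBayes without trend, summed rows and each library left out. Depth was estimated in Python 3.11.15 from low values, using single-transcript genes of GENCODE M21.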

Additional observations from a re-analysis of the deposited data

How the results depend on the processing

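The number of exosome genes with an adjusted p under 0.05 was 5, and 4 to 6 over the alternatives. The split was 1 lower and 4 higher with median ratio scaling, after quantile normalization and in eBayes without trend, as Cd81 lost its call and Rab27a gained it. Cd81 also lost it without the filter (adjusted p = 0.0536), where Rab27b was tested and passed, and in eBayes without trend (0.0554). With the replicate block 6 genes passed (3 lower, 3 higher), with Tsg101 added, and 56 of the pathway genes in place of 50, and it changed no other call among the genes of the set. The pathway genes called numbered 40 to 56. Smpd3 was the altered gene of the set in each fit, with Rab27b tested in the fit without the filter alone. Quantile normalization moved the median over all genes tested by 0.14 on the log2 scale, from -0.09 to 0.06. Sdcbp changed sign after rescaling the libraries to an equal sum (-0.0609) and after quantile normalization (-0.0383), and went from -0.0233 to 0.0536 with a replicate left out. Rab7 changed sign after rescaling the libraries to an equal sum (-0.024) and went from -0.00317 to 0.10 with a replicate left out. Neither passed the test in any fit, and the cause was not tested. Depth limits Rab27b, which rests on few reads.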
